A study of Mus musculus with 4 samples.

Results

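The netrin receptor gene Dcc, its paralogue Neo1, the neogenin ligand gene Rgma and the Slit receptor genes Robo1 and Robo2 were examined in a list of RNA sites bound by the RNA-binding protein IMP2, the product of Igf2bp2, in embryonic mouse brain. They were found by gene symbol and are 5 of the 761 genes in the list, with 14 of its 1828 distinct clusters. A cluster is a stretch of the transcript covered by overlapping tags, the short RNA fragments that were crosslinked to the protein and sequenced. Rgma encodes a ligand that sits on the cell surface, so only the other 4 genes encode receptors.

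The sites came from HITS-CLIP, in which ultraviolet light joins proteins to the RNA they touch before the protein is pulled down with an antibody and the attached RNA is sequenced. The material was brain of Swiss Webster mouse embryos at E14. The 4 libraries carry R (2 libraries) or M (2 libraries) in their titles. Antibodies to IMP2 from mouse and from rabbit were used per the labels, which leave the letters unexplained. One list stood for the whole series, so no value below has a replicate error and no test across libraries could be made. The height of a cluster is the authors' value and is read here as its largest number of overlapping tags. Their fold is the height over a level that the header does not define. The depth behind a height is unknown, as the tag total of a library is stated neither in the file nor in the labels. A tall cluster and an abundant transcript cannot be told apart, since no measure of RNA abundance was analysed here. In the tissue check, 8 of 11 neuronal and 2 of 10 neural progenitor markers were listed, against 3.47% of all protein-coding genes. The counts for other markers were 0 of 5 microglial, 1 of 6 endothelial and pericyte and 1 of 4 choroid plexus. They were 3 of 6 erythroid (of which a globin pair shares 1 cluster) and 3 of 5 meningeal. A marker is listed only if it holds a cluster, so these counts do not measure cell composition. The part of these cell types in the values of the guidance genes was not tested.

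Growing axons steer by cues that they meet on the way. Netrins attract axons that carry DCC, neogenin binds both netrins and the repulsive guidance molecules (RGMs), and Slit proteins repel axons that carry Robo receptors. In the embryonic brain these systems guide axons towards, across or away from the midline, and neogenin with RGMs also acts in BMP signalling. Proteins of the IGF2BP family bind mRNA and take part in its localisation, stability and translation.

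Dcc had the most clusters of the 5 genes and the highest one, while the highest clusters of the other 4 lay near the middle of the list or below it. Dcc had 7 clusters and its highest reached 67. Robo2 had 3 clusters with a highest of 34, Robo1 had 2 with a highest of 31, Rgma had 1 of height 33 and Neo1 had 1 of height 22. The median of the highest cluster over all 761 genes was 31. By this measure 95% of listed genes lay below Dcc, 56.1% below Robo2, 52.6% below Rgma, 46.3% below Robo1 and 11.3% below Neo1. Robo2, Rgma and Robo1 differed from each other by at most 3 tags, and whether that exceeds the error of a height could not be measured. All 5 genes are in the list because they were chosen from it, and 3.47% of the 21900 protein-coding genes had at least 1 cluster. At least 2 clusters were held by 3 of the 5 (Dcc, Robo1 and Robo2), against 44.9% of listed genes. By number, 94% of listed genes had fewer clusters than Dcc, 73.6% fewer than Robo2 and 55.1% fewer than Robo1. Dcc came first by each measure, but the size of its lead depended on the measure. By the median height over the clusters of a gene, Dcc had 36, Rgma 33, Robo1 30, Robo2 28 and Neo1 22. Counting only clusters with a fold above the median of the list (5.4), Dcc had 4, Robo2 3, Rgma 1, and Robo1 and Neo1 had 0.

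**Figure D1:**
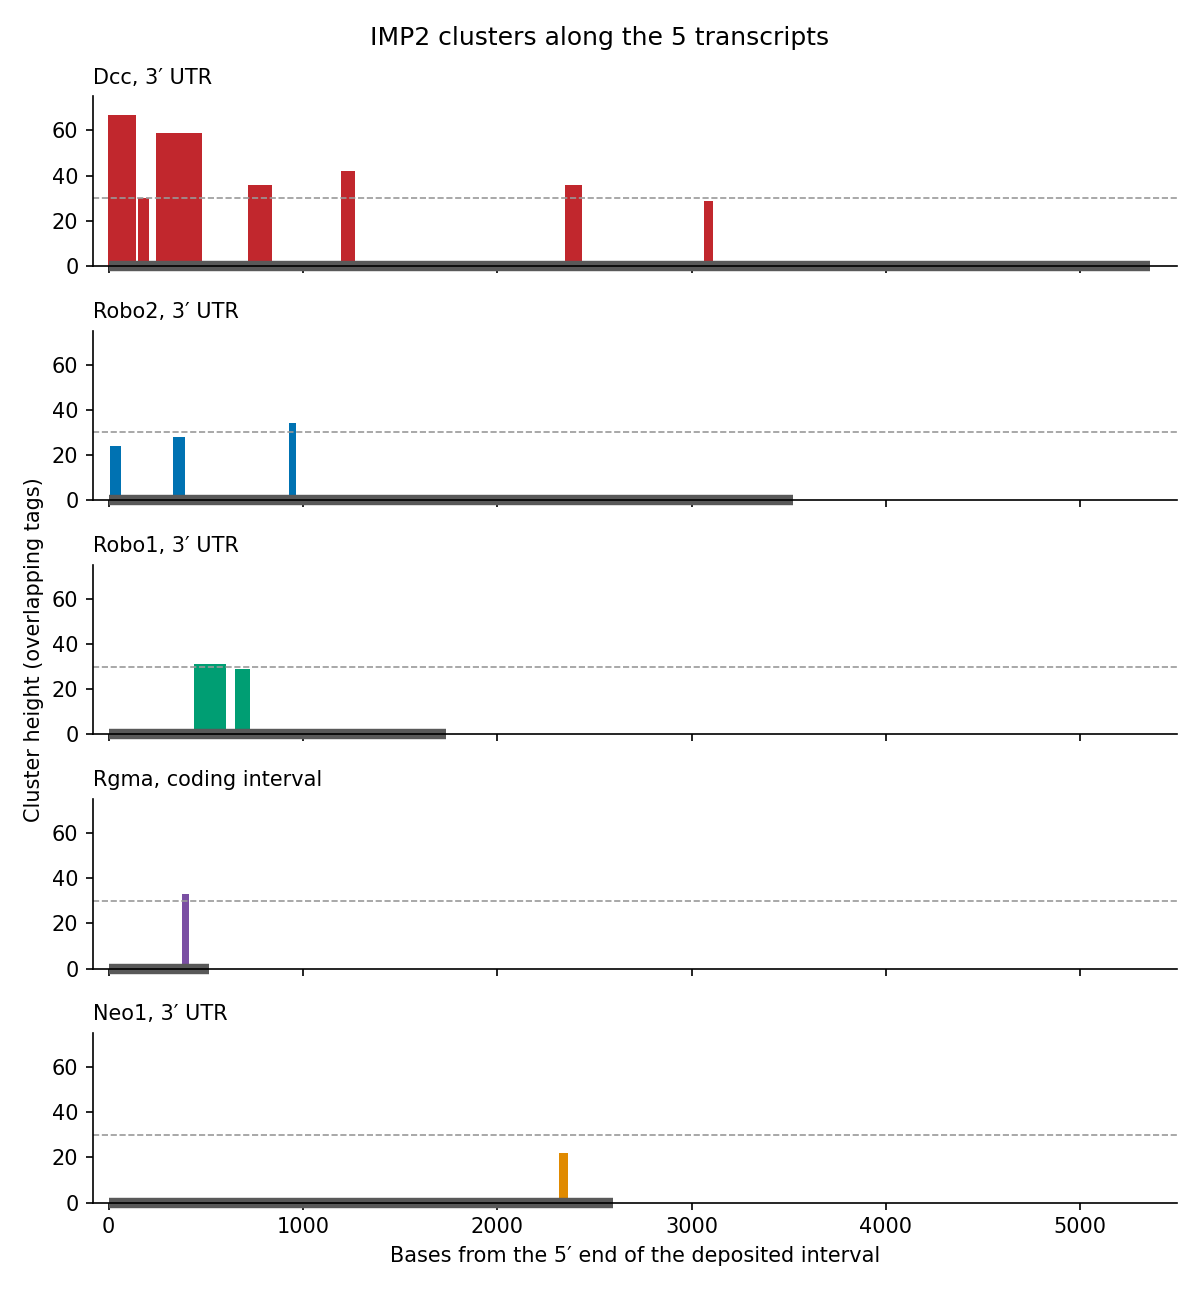
Cluster height (overlapping tags, vertical axis) along the deposited annotation interval of each transcript, in bases from the 5′ end of that interval, which for a 3′ UTR is its stop codon side. Grey bars show the length of the interval, coloured bars the position and width of each cluster, and the dashed line the median height of all clusters (30). The 7 clusters of Dcc are densest, and reach 67 and 59, at the stop codon side, those of Robo2 and Robo1 lie in the first 1000 bases, and that of Neo1 lies near the far end.

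Dcc encodes the receptor through which netrin-1 attracts commissural axons. Its gene lies on chromosome 18 (minus strand, 71413286 to 72510723, mm9), and the clusters all fell by their midpoint in the 3' UTR, which spans 5358 bases at 71413286 to 71418643. The highest cluster (height 67, fold 9.82) lay at 71418504 to 71418645. It was 142 bases wide and began 2 bases upstream of the 3' UTR interval, so that it ran across the end of the coding sequence. Only 59 of the 1828 clusters were taller.

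The other Dcc clusters followed towards the 3' end. The second from the stop codon had a height of 30 and a fold of 5.02 at 71418437 to 71418494, only 9 bases from the first. The third, at 71418163 to 71418400, had a height of 59 and the largest fold of the 14 clusters, 10.8. It was also the widest of the 7, with 238 bases, and 37 clusters of the list were wider. These 3 clusters together covered 436 of the first 500 bases of the 3' UTR (87.2%).

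Beyond that crowded stretch the clusters of Dcc were farther apart, and none reached the height of the first or the third. The fourth had a height of 36 and a fold of 6.5 at 71417801 to 71417927, and the fifth a height of 42 and a fold of 8.68 at 71417375 to 71417445. After a gap of 1078 bases, the sixth had a height of 36 and a fold of 5.38 at 71416209 to 71416296. The seventh, with a height of 29 and a fold of 4.12, lay at 71415533 to 71415578. The last 2247 bases of the 3' UTR held no listed cluster. Heights thus reached 59 and 67 only within the first 500 bases and stayed between 29 and 42 in the remainder, while the second cluster, of height 30, was lower than the 3 that followed the third.

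Measured against the list, Dcc was high in the number and coverage of its clusters and less so in their density. These scales all rest on the same 7 clusters. Only 37 genes had more clusters. Clusters covered 14.3% of its 3' UTR, against a median of 4.70% over the 729 genes with a 3' UTR cluster, of which 130 had a larger share covered. The density was 1.31 clusters per kilobase, exceeded by 245 genes, against a median of 0.861. That median is raised by short 3' UTRs, in which a single cluster already gives a high density. Among the 74 other listed genes whose 3' UTR was 0.8 to 1.2 times as long as that of Dcc, a window chosen after the values were seen, the median was 2 clusters (0.344 per kilobase) and the median highest cluster was 32. Of these 74 genes, 7 had more clusters than Dcc and 4 had a higher one. Over the 729 genes, the number of 3' UTR clusters was weakly related to 3' UTR length (Spearman's rho = 0.231, a description across genes, which share the same libraries).

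**Figure D2:**
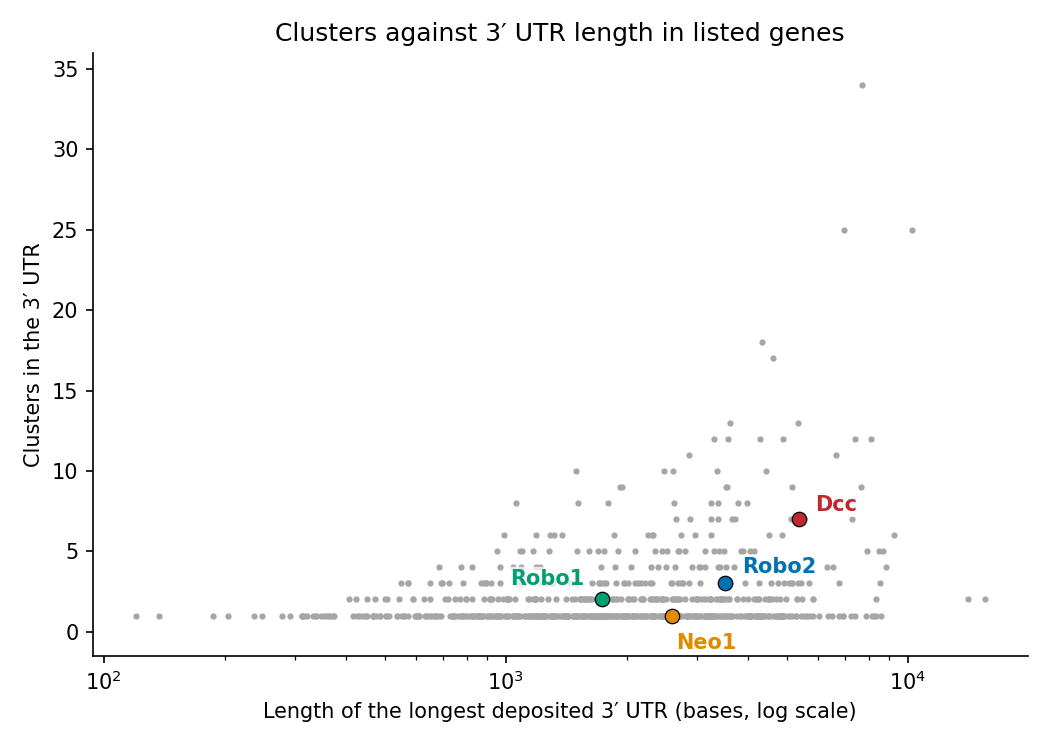
Number of clusters in the 3′ UTR (vertical axis) against the length of the longest deposited 3′ UTR (bases, log scale) for the 729 listed genes with a 3′ UTR cluster, each a grey point. Coloured points mark Dcc (7 clusters), Robo2 (3), Robo1 (2) and Neo1 (1), and Dcc lies above most genes of similar length, of which the median was 2.

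Other genes with 7 clusters were mostly lower than Dcc. There were 9 such genes, Dcc included, with a median highest cluster of 47 and a range of 31 to 90, and 2 of them exceeded Dcc. Among the listed genes closest to Dcc in both number and height of clusters, by the sum of the absolute rank differences over 761 genes, was Gnb1 (8 clusters, highest 67), which encodes a G protein beta subunit. Mest (8, highest 68), an imprinted gene, and Nedd4 (8, highest 65), a ubiquitin ligase gene, were also among them, and Rtn3 (9, highest 65) and Ttyh3 (7, highest 59) tied for the fifth place. None of these named genes encodes a guidance receptor. Over all genes, those with more clusters also had higher ones (Spearman's rho = 0.62, n = 761 genes), so both measures of likeness overlap.

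**Figure D3:**
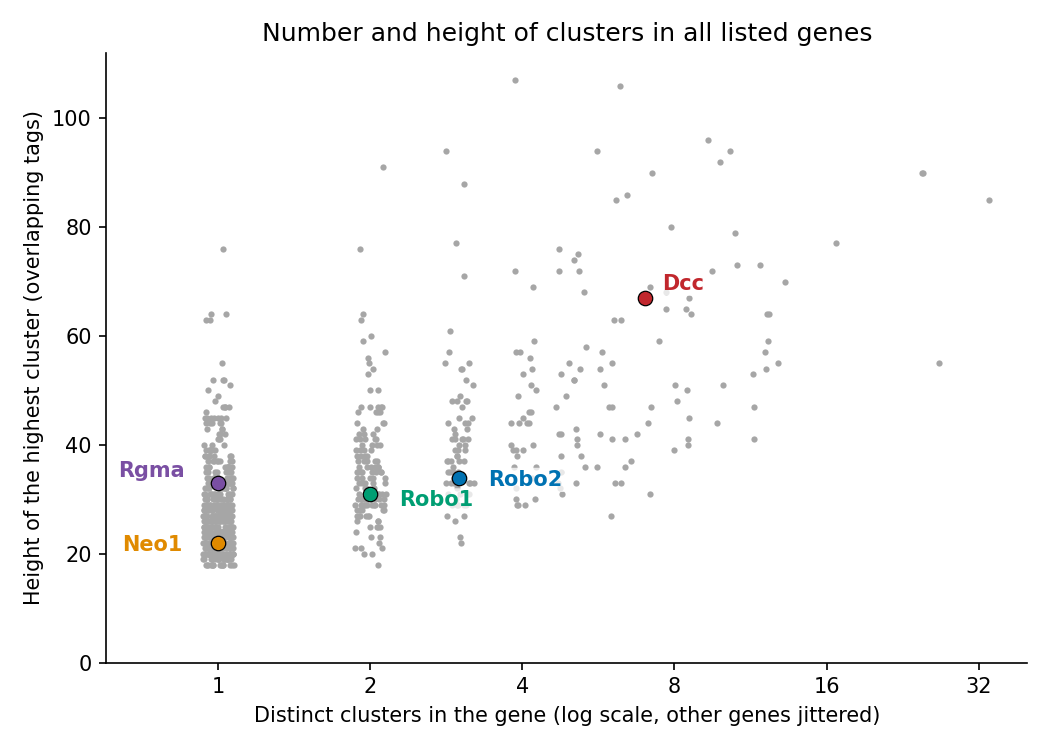
Height of the highest cluster (overlapping tags, vertical axis) against the number of distinct clusters (log scale) for all 761 listed genes. Grey points are the other genes, shifted slightly sideways at random so that they do not hide each other, and coloured points are the 5 guidance genes. Dcc (7 clusters, 67) lies at the upper right of the dense cloud, and the other 4 lie inside it.

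Neo1, the paralogue of Dcc, had the weakest signal of the 5 genes. Neogenin shares the overall build of DCC, an immunoglobulin-like and fibronectin-type extracellular part, and binds RGMs and netrins. The only cluster of Neo1 (height 22, fold 3.27) lay on chromosome 9 at 58722715 to 58722763 (minus strand, mm9) and was 49 bases wide. Of the 1828 clusters, 1523 were taller, and 9.25% had a lower fold. Both deposited transcripts of Neo1 share this 3' UTR of 2594 bases, at 58722487 to 58725080. The cluster sat at 90.3% of the way along it, 228 bases from the 3' end. The place of the Neo1 cluster was thus the reverse of that of the tall Dcc clusters, which lay at 1.29% and 6.76% of the way. Of 130 listed genes with a 3' UTR of similar length, in the same window of 0.8 to 1.2 times, 109 had a higher cluster than Neo1 and 60 also had only 1 in the 3' UTR.

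Rgma differed from the receptors in the region bound. RGMa is anchored to the membrane by a lipid and repels axons through neogenin. Its single cluster (height 33, fold 6.29) lay in coding sequence on chromosome 7 at 80554497 to 80554530 (plus strand, mm9). It was 34 bases wide, narrower than any cluster of the receptors. The coding interval that holds it spans 518 bases at 80554118 to 80554635 and ends 10150 bases of genome before the end of the transcript. In the whole list 99 clusters (5.42%) lay in coding sequence and 1721 (94.1%) in a 3' UTR. The coding clusters had a median height of 26 and a median fold of 4.75, and 22 of them were taller than that of Rgma. Genes with clusters in coding sequence only numbered 30 (3.94% of 761).

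The Slit receptor genes Robo1 and Robo2 resembled each other in the height of their clusters, all of which lay in the first 1000 bases of the 3' UTR. These heights, from 24 to 34, were also typical of the list, whose quartiles were 24 and 39. Both receptors keep axons from entering or re-entering the midline. Their genes are neighbours in the list on chromosome 16, with Robo1 on the plus strand and Robo2 on the minus strand, so that their 3' ends face each other. The distance between these ends is 846 kb on mm9, with 0 other listed genes between them.

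Robo2 had 3 clusters in a 3' UTR of 3520 bases (73892551 to 73896070), all in its first 1000 bases. The cluster closest to the stop codon, at 73896007 to 73896065, had a height of 24 and a fold of 6.23 and began 5 bases into the 3' UTR. The next, at 73895678 to 73895737, had a height of 28 and a fold of 5.8. The third, at 73895105 to 73895144, had a height of 34 and a fold of 6.31. The tallest cluster of Robo2 was thus the one farthest from the stop codon, whereas in Dcc it was the nearest. The folds of these clusters, from 5.8 to 6.31, were close to each other and all above the median of the list (5.4), although the heights 24 and 28 were below the median height. The clusters covered 4.52% of the Robo2 3' UTR. Among 135 listed genes with a 3' UTR of similar length the median was 2 clusters, with 35 genes above Robo2 in number and 51 in the height of the highest cluster.

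Robo1 had 2 clusters in a 3' UTR of 1738 bases (73044608 to 73046345). The first, at 73045047 to 73045209, had a height of 31 and a fold of 4.98 and was 163 bases wide. The second, at 73045261 to 73045337, had a height of 29 and a fold of 3.91, and 51 bases separated it from the first. Together they covered 13.8% of the 3' UTR, close to the share in Dcc (14.3%), from a much shorter sequence and with lower heights. Of 136 listed genes with a 3' UTR of similar length, whose median was 1 cluster, 27 had more clusters than Robo1 and 72 had a higher one. In contrast to Robo2, both folds of Robo1 were below the median of the list. The undefined level, taken as height divided by fold, was 6.22 and 7.42 at the Robo1 clusters and 3.85, 4.83 and 5.39 at those of Robo2. It follows from the heights and folds already given, and a difference between the genes in this level was not tested.

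**Figure D4:**
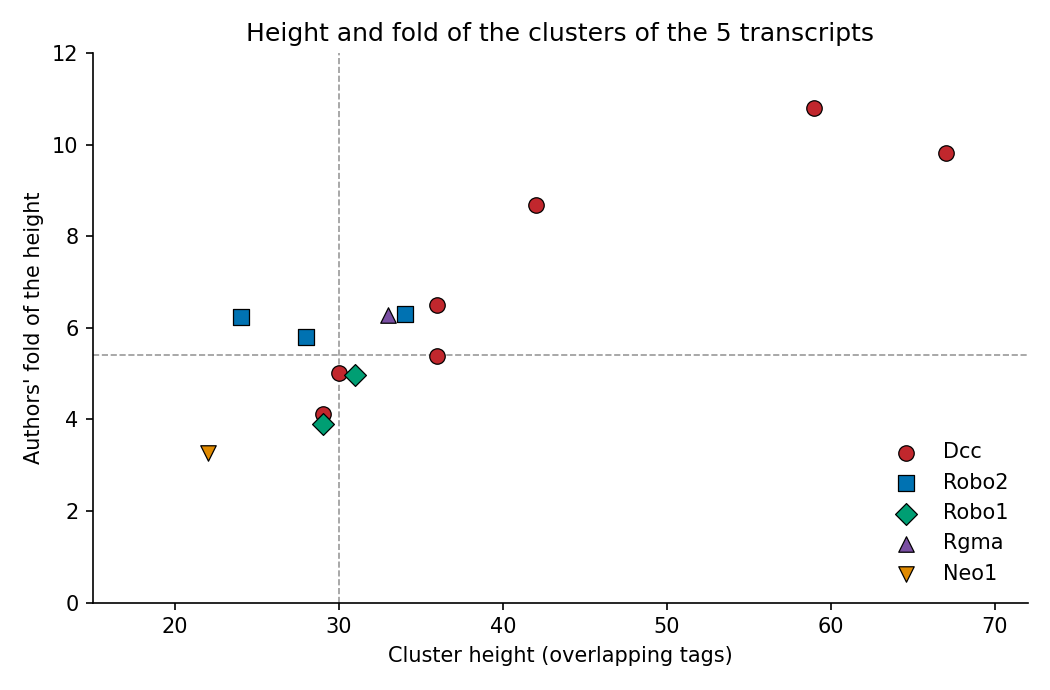
Authors' fold of the height (vertical axis) against cluster height (overlapping tags) for the 14 clusters, with colour and marker by gene and dashed lines at the medians of all 1828 clusters (height 30, fold 5.4). The 3 Robo2 clusters lie above the median fold at heights of 24 to 34, both Robo1 clusters lie below it at 29 and 31, and the Dcc clusters run from height 29 and fold 4.12 to heights of 59 and 67 with folds of 10.8 and 9.82.

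Positions within the 3' UTR leaned to the stop codon side in Dcc, Robo2 and Robo1, but not in Neo1. Of their 13 clusters in a 3' UTR, 11 had their midpoint in the first 50% of the interval, all but that of Neo1 and the seventh of Dcc, against 52.1% of the 1721 in the whole list. The 13 clusters come from 4 genes, and 7 of them from Dcc alone, so they are not independent and no test was made. Within the first 1000 bases lay 4 of 7 Dcc clusters, 3 of 3 in Robo2, 2 of 2 in Robo1 and 0 of 1 in Neo1. In listed genes with a 3' UTR of similar length, the share was 22.1% of 226 clusters for Dcc, 31.1% of 373 for Robo2, 61.6% of 263 for Robo1 and 37.2% of 309 for Neo1. A cluster that began before the 3' UTR or within its first 10 bases was found in 2 of the 4 genes (Dcc and Robo2), against 3.43% of the 729 genes with a 3' UTR cluster. The 2 clusters began 2 bases before and 5 bases into the interval, so the limit of 10 bases just takes in both. Dcc and Robo2 hold 7 and 3 clusters, whereas 55.1% of listed genes hold 1. Counted by cluster, the share was 1.45% of the 1721 in the list. In 328 genes with at least 2 clusters in the 3' UTR, the one nearest the stop codon was the tallest in 33.5%, as in Dcc and Robo1, and the one nearest the 3' end in 37.2%, as in Robo2. Among the 87 genes with at least 5 such clusters, the share with the first as the tallest was 13.8%, Dcc included.

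The 4 receptor genes were also long genes. The transcribed span was 1097 kb for Dcc, 518.6 kb for Robo2, 383.0 kb for Robo1, 161.8 kb for Neo1 and 44.4 kb for Rgma, against a median of 40.3 kb over listed genes. Dcc was the third longest of the 761, Robo2 the fourteenth and Robo1 the twenty-eighth. A span over 100 kb was found in 4 of the 5, against 23.1% of listed genes. Over all listed genes the number of clusters was almost unrelated to the span (Spearman's rho = 0.0714, n = 761 genes). Of 15 listed genes longer than 500 kb, none had a higher cluster than Dcc and 2 had more clusters, namely Celf2 with 12 and Nfia with 10. Both listed genes longer than Dcc had lower clusters: Auts2, the longest at 1105 kb, had 6 clusters with a highest of 33, and Ctnna2 at 1098 kb had 1 of height 23.

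Most close relatives of these genes were absent from the list, as were most protein-coding genes, of which 3.47% were listed. Of 12 genes for netrin, RGM and Slit receptors and their relatives, the listed ones were Dcc, Neo1, Robo1 and Robo2. Robo3, which lets commissural axons cross the midline, Robo4, the netrin receptors Unc5a, Unc5b, Unc5c and Unc5d, and Dscam and Dscaml1 had no cluster. Among 17 ligands and surface partners, Rgma and Flrt2 were listed. Flrt2, which encodes a membrane ligand of UNC5 receptors, had 1 cluster of height 20 and fold 5.65 in its 3' UTR. The Slit genes Slit1, Slit2 and Slit3, the netrin genes Ntn1, Ntn3, Ntn4 and Ntn5, the netrin-G genes Ntng1 and Ntng2, and Rgmb, Hjv, Draxin, Flrt1, Flrt3 and Nell2 had none. With the 5 chosen genes, 6 of the 29 genes in both groups were listed (20.7%), and without them 1 of 24 (4.17%). The share of all protein-coding genes was 3.47%. The 5 were taken from the list, so keeping them raises the share and leaving them out lowers it. Neither share is read as enrichment or as its absence. A gene without a cluster may lie below the height and fold limits of the list, whose lowest values were 18 and 2, and its transcript level was not measured.

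Some partners of these receptors inside the cell were listed, with low clusters. Of 41 genes for adaptors, kinases, GTPases and their regulators, 9 had a cluster (22.0%), against 3.47% of protein-coding genes. The 41 genes were a chosen list, and the share of all protein-coding genes includes genes whatever their expression in this tissue. As transcript levels were not measured, the difference between the shares was not tested and is not read as enrichment. The median of their highest clusters was 28. Enah, an actin polymerase regulator downstream of netrin and Slit receptors, had 2 clusters with a highest of 38. Trim67, a brain ubiquitin ligase that binds DCC, had 1 of height 36 and fold 9.8. Srgap3, a GTPase-activating protein of the family that binds Robo receptors, had 2 clusters with a highest of 30. The GTPase genes Rac1 (25) and Cdc42 (29), the kinase genes Src (22), Pak3 (28) and Rock2 (19) and the Ena/VASP gene Evl (24) had 1 each. Not listed were, among others, Srgap1, Srgap2, Fyn, Ptk2, Nck1, Trio, Dock1, Rhoa and Trim9. None of these 9 genes reached the height of 59 or 67 seen in Dcc.

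In BMP signalling, for which RGMs act as co-receptors, 4 of 8 receptor and SMAD genes were listed (50%), against 3.47% of protein-coding genes. These 8 genes were likewise a chosen list without measured transcript levels, and the difference was not tested. Bmpr1a, a type I BMP receptor gene, had 3 clusters with a highest of 44 and a largest fold of 9.19. Acvr2a had 2 clusters with a highest of 25, and the signal transducer genes Smad1 and Smad5 had 1 each, of height 28 and 24. Bmpr1b, Bmpr2, Acvr1 and Smad9 had none. The highest cluster of Bmpr1a was thus taller than those of Rgma (33) and Neo1 (22).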

How the data were processed

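The deposited list of clusters was the only file and has no column for a single library. Per the submitters' processing notes, FastQC, Bowtie and the genome build mm9 were used; the tool and thresholds that made the clusters, the RefSeq version and any pooling of libraries are stated neither in the file nor in the labels. Cluster height is a deposited value, and its reading as a number of overlapping tags was made here. The deposited fold is a ratio to a level that the header does not define. PCR duplicates could not be checked.

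The 2865 lines were reduced to 1828 distinct clusters with pandas 2.3.3, and starts were made 1-based. Transcripts were named by accession (1088) or symbol (11) through a RefSeq table of GRCm38.p6, whose coordinates were not used. A cluster took the region that held its midpoint, genes were ranked by their tallest cluster, and spans came from the deposited transcript ends. Steps were tested on simulated data. The genes named are the 5 genes, fixed lists of relatives and partners, and the 5 genes nearest to Dcc in rank, besides a few long genes named after their values were seen; some genes are not reported here. Genes and lists were chosen with earlier results of these data known, so they are described without tests. The sequence under the clusters was not analysed here.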

Additional observations from a re-analysis of the deposited data

How the results depend on the processing

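Of 67 alternative values, 24 moved, where any change counted for the level or the order of the genes and a change of over 1.5 times for other values. This tally does not measure robustness, because some outcomes were fixed in advance. A fold is another quantity than a height and always counted as moved. The mean height of a gene with 1 cluster and the shortest 3' UTR interval of these genes could not differ from the main value. Counting only clusters taller than the median left Neo1 with 0, Robo1 with 1 and Robo2 with 1, and 0% and 1.14% of the Neo1 and Robo2 3' UTRs covered. Counting only clusters with a fold above the median left 4 for Dcc, 3 for Robo2, 1 for Rgma and 0 for Neo1 and Robo1. Joining clusters at most 100 bases apart, a distance chosen after seeing the data, left 1 for Robo1. Joining at 50 bases gave 5 for Dcc and changed no other count of these genes. The mean height was 42.7 for Dcc, 30 for Robo1 and 28.7 for Robo2. The largest fold in place of height was 10.8 for Dcc, 6.31 for Robo2, 6.29 for Rgma, 4.98 for Robo1 and 3.27 for Neo1, in the same order. By median height, 8 of 10 pairs of genes kept their order, where Dcc (36) led Rgma (33) by 3 tags, and Robo2 (28) fell below Rgma and Robo1 (30). With at least 2 clusters, 0 ligands, 2 partners inside the cell and 2 BMP genes were listed; with a cluster taller than the median, 1, 2 and 1. The settings that moved differed from the main one in the clusters counted or in the quantity used, and no cause was tested.

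No paired analysis was possible because the list holds no value of a single library, and for the same reason leaving out single libraries was not done.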
